A study of Mus musculus with 24 samples.

Results

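Loss of NEMO in hepatocytes was examined in whole liver, by setting the NEMO knockout livers (NEMOΔhepa, 3 arrays) against livers of floxed control mice (NEMOf/f, 3 arrays). These 6 arrays were chosen by their titles from a series of 24 Affymetrix mouse arrays, which covers whole livers and primary hepatocytes of 4 genotypes with 3 arrays each. All mice were male and 8 weeks old. Both groups carried floxed NEMO, and the knockouts in addition the Alfp-Cre transgene, whose albumin and alpha-fetoprotein promoter elements drive Cre recombinase in liver parenchymal cells. Immune, endothelial and stellate cells are not its targets. The labels do not say whether the controls were littermates of the knockouts, or whether the KEAP1 knockouts carried floxed NEMO. Other livers of the series served for comparison, namely those of hepatocyte-specific KEAP1 knockouts and of NEMO/KEAP1 double knockouts, as did the hepatocytes, isolated by collagenase perfusion and kept in culture overnight, of the NEMO knockout and its control. Levels are log2 expression values, so a difference of 1 is a 2-fold change. A gene was called changed at an adjusted p under 0.05 in limma, and ± is the standard error of the fitted difference unless stated otherwise.

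The product of Ikbkg, NEMO, holds the IkB kinase complex together as its regulatory part, and the complex passes signals from tumour necrosis factor and other receptors on to the transcription factor NF-kB. In hepatocytes that pathway restrains cell death, and mice without NEMO in hepatocytes are known for chronic hepatocyte death, compensatory proliferation, steatohepatitis, fibrosis and liver tumours. KEAP1 directs NRF2, the transcription factor encoded by Nfe2l2 that drives antioxidant and detoxifying enzymes, to degradation.

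The array labelled control 3 stood apart from the other controls. The quinone reductase gene Nqo1 lay at 5.95, 5.84 and 5.58 in NEMO knockouts 1 to 3, against 4.71, 5.37 and 9.17 in controls 1 to 3. The cystine importer gene Slc7a11 lay at 3.15, 2.83 and 2.70 in the NEMO knockouts, against 2.63, 2.42 and 9.29 in the controls. On control 3 both were thus far above all other NEMO knockout and control livers, as were the carbonyl reductase gene Cbr3 at 9.76 and the glutathione peroxidase gene Gpx2 at 9.16. In the KEAP1 knockout and double knockout livers these 4 genes lay between 7.82 and 10.23. Ikbkg itself lay at 6.26, 6.25 and 6.14 in the NEMO knockouts, against 6.86, 6.81 and 6.40 in the controls, so that control 3 was nearer to the NEMO knockouts than the other controls were. Over all 18820 genes, control 3 correlated most closely with double knockout livers 1 and 2 (r = 0.9941 and 0.9943) and less with controls 1 and 2 (r = 0.9791 and 0.9825), while those 2 controls correlated with each other at 0.9901. The first principal component of the 6 arrays held 52.8% of their variance. The NEMO knockouts had scores of 23, 12.9 and 32.8 on it, controls 1 and 2 scores of -40.1 and -33.6, and control 3 a score of 5.09. The cause of this difference was not tested, and the differences are given with and without control 3. Leaving it out was decided from its NRF2 target and Ikbkg levels, so differences in those genes without it are not independent of that choice. Double knockout liver 3 also stood apart, with Adipoq at 7.17 and Krt7 at 7.81. It is in neither group compared but enters the shared estimate of the spread, and with both arrays left out 2265 genes were called.

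**Figure D1:**
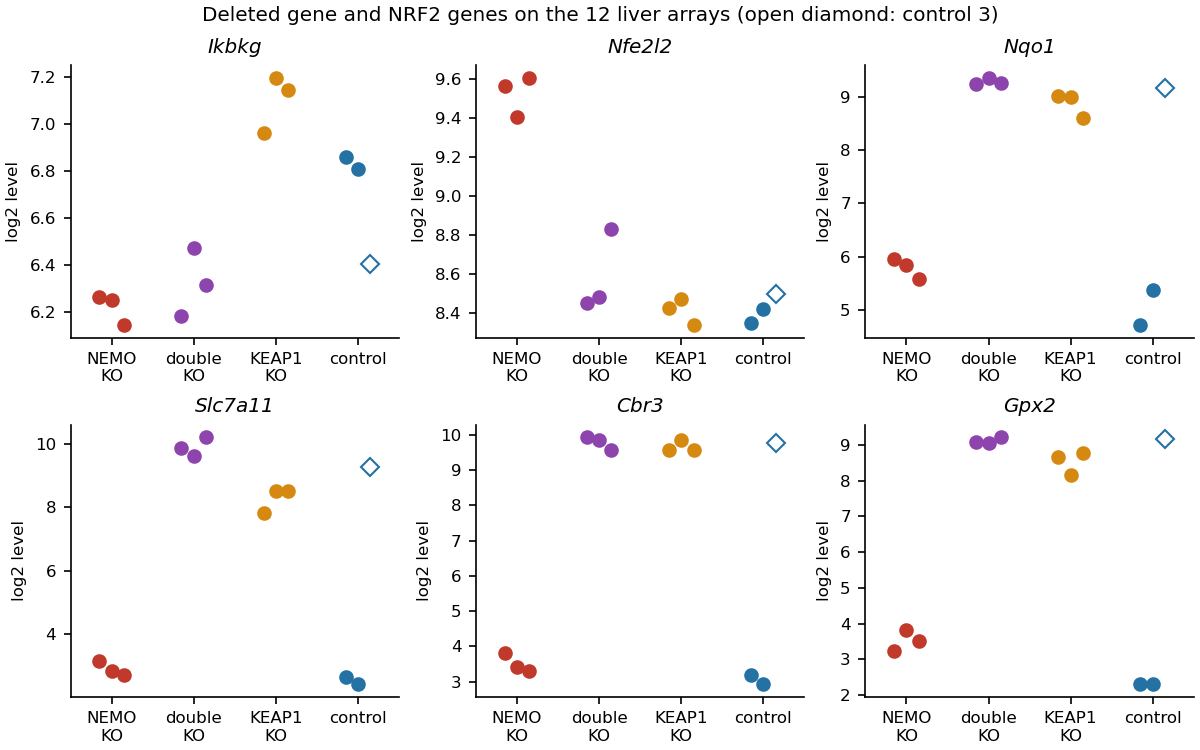
Log2 level of Ikbkg, Nfe2l2 and 4 NRF2 target genes (1 panel each, log2 level on the vertical axis) on each of the 12 liver arrays, 1 point per array, by genotype. The open diamond of control 3 lies at 9.17 for Nqo1 and 9.29 for Slc7a11, level with the KEAP1 knockout and double knockout livers, while controls 1 and 2 lie at 5.37 or lower for both.

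The defining marker of the labelled tissue was high and those of other tissues low. Albumin (Alb) lay at 13.26, 13.35 and 13.30 in the NEMO knockouts, against 13.25, 13.20 and 13.13 in the controls, with no difference called. The fat cell gene of adiponectin (Adipoq) lay between 2.26 and 2.53 on the 6 arrays, and the bile duct keratins Krt7 and Krt19 between 3.63 and 4.87. A list of 13 fat, pancreas and muscle markers averaged 3.16 to 3.21 in the NEMO knockout livers and 3.30 to 3.43 in the controls.

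Ikbkg had a difference of -0.47 ± 0.13 (adjusted p = 0.0982) with all arrays and of -0.61 ± 0.12 (adjusted p = 0.0106) without control 3. Its probe set may lie outside the deleted exons, whose position was not used here, and the non-hepatocyte cells of the liver keep the gene, so this level is a weak check of the deletion. The other 16 measured genes of the IkB kinase complex and the NF-kB family had no call with or without control 3, and with Ikbkg 2 of the 17 had an unadjusted p under 0.05 with it and 1 without it. The catalytic subunit gene Ikbkb, for one, lay at 7.25, 7.09 and 7.03 in NEMO knockouts 1 to 3, against 7.04, 7.13 and 6.94 in controls 1 to 3.

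With all arrays 251 of 18820 genes were called, 191 higher in NEMO knockout liver (1.01% of the genes tested) and 60 lower (0.319%). With each array centred on its median the split was 160 higher and 152 lower. Without control 3 the count was 1409, with 1012 higher (5.38%) and 397 lower (2.11%). Both counts share 5 of the 6 arrays, and the 251 genes were all among the 1409 with the same direction. On a scale with the mean of controls 1 and 2 at 0 and that of the NEMO knockouts at 1, control 3 lay at a median of 0.70 over the 1012 higher genes and of 0.68 over the 397 lower ones. It was nearer to the NEMO knockouts than to the other controls in 745 of the 1012 and 272 of the 397. Leaving out control 3 thus raised the count, and leaving out another array lowered it, to 23 without NEMO knockout 3, 28 without control 1 and 43 without control 2. Of the 251 genes 21 kept the call when any 1 of the 6 arrays was left out. Of the 1409 genes 214 did so when any 1 of the 5 remaining arrays was left out. Where a call below held when any 1 array was left out, this is stated, and every other call made with all arrays was lost in at least 1 such fit. Unadjusted p-values under 0.05 with all arrays, counted for some lists, were found in 3379 of all 18820 genes. P-values measure the spread between these arrays, for which the labels give a replicate number of a mouse and nothing more on its origin.

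The largest rises were in genes of several kinds. Akr1c18, a hydroxysteroid dehydrogenase that inactivates progesterone, lay at 7.97, 7.32 and 8.48 in the NEMO knockouts, against 3.56, 3.51 and 3.51 in the controls. The controls were within 0.05 of each other and control 3 did not stand out, and the difference was 4.40 ± 0.27 (adjusted p = 2.47e-05, and 4.39 ± 0.31 without control 3, adjusted p = 4.53e-05). Gldn, the gene of gliomedin, an adhesion protein of peripheral nerve nodes, lay at 6.08, 5.29 and 5.62 in the NEMO knockouts, against 2.53, 3.02 and 2.52 in the controls. Here too control 3 lay with the other controls, and the difference was 2.98 ± 0.20 (adjusted p = 3.49e-05, and 2.89 ± 0.23 without control 3, adjusted p = 8.21e-05). Ccnd1, the gene of cyclin D1, which drives cells out of the resting phase, lay at 9.71, 9.07 and 9.66 in the NEMO knockouts, against 6.20, 6.35 and 6.97 in the controls. The difference was 2.98 ± 0.33 (adjusted p = 0.00296) with all arrays and 3.21 ± 0.34 (adjusted p = 0.000603) without control 3. These 3 genes kept their calls when any 1 array was left out.

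In most of the other genes with large rises control 3 lay between the groups. Prelid2, of a family of mitochondrial lipid carriers, lay at 6.56, 6.75 and 6.94 in NEMO knockouts 1 to 3, against 2.96, 3.40 and 4.32 in controls 1 to 3. The difference was 3.19 ± 0.41 (adjusted p = 0.00559, and 3.57 ± 0.40 without control 3, adjusted p = 0.000691), and the call held when any 1 array was left out. Gpnmb, a membrane glycoprotein of macrophages among other cells, lay at 7.09, 6.36 and 7.02 in the NEMO knockouts, against 3.27, 2.65 and 5.68 in the controls. Control 3 was more than 2 units above the other controls there, and the difference was 2.95 ± 0.60 (adjusted p = 0.0374) with it and 3.86 ± 0.34 (adjusted p = 0.000198) without it. Atp6v0d2, a proton pump subunit known from osteoclasts and macrophages, lay at 6.77, 6.55 and 6.60 in the NEMO knockouts, against 3.76, 3.46 and 4.86 in the controls. The difference was 2.61 ± 0.33 (adjusted p = 0.00519, and 3.03 ± 0.25 without control 3, adjusted p = 0.000128), which also held when any 1 array was left out. D17H6S56E-5 differed by 3.75 ± 0.65 (adjusted p = 0.0203, and 4.55 ± 0.52 without control 3, adjusted p = 0.000831), and Ifi27l2b, of an interferon-inducible family, by 2.59 ± 0.38 (adjusted p = 0.0114, and 3.19 ± 0.20 without control 3, adjusted p = 3.76e-05). Knstrn, Ccna2, Ckap2 and Mybl1, all genes of dividing cells, make up the rest of the 12 largest and are described with their group. Outside the 12, Nfe2l2 had a smaller but steady rise. It lay at 9.56, 9.40 and 9.61 in the NEMO knockouts, against 8.35, 8.42 and 8.50 in the controls, a difference of 1.10 ± 0.11 (adjusted p = 0.000949, and 1.14 ± 0.12 without control 3, adjusted p = 0.000562), with control 3 among the controls, and the call held when any 1 array was left out.

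**Figure D2:**
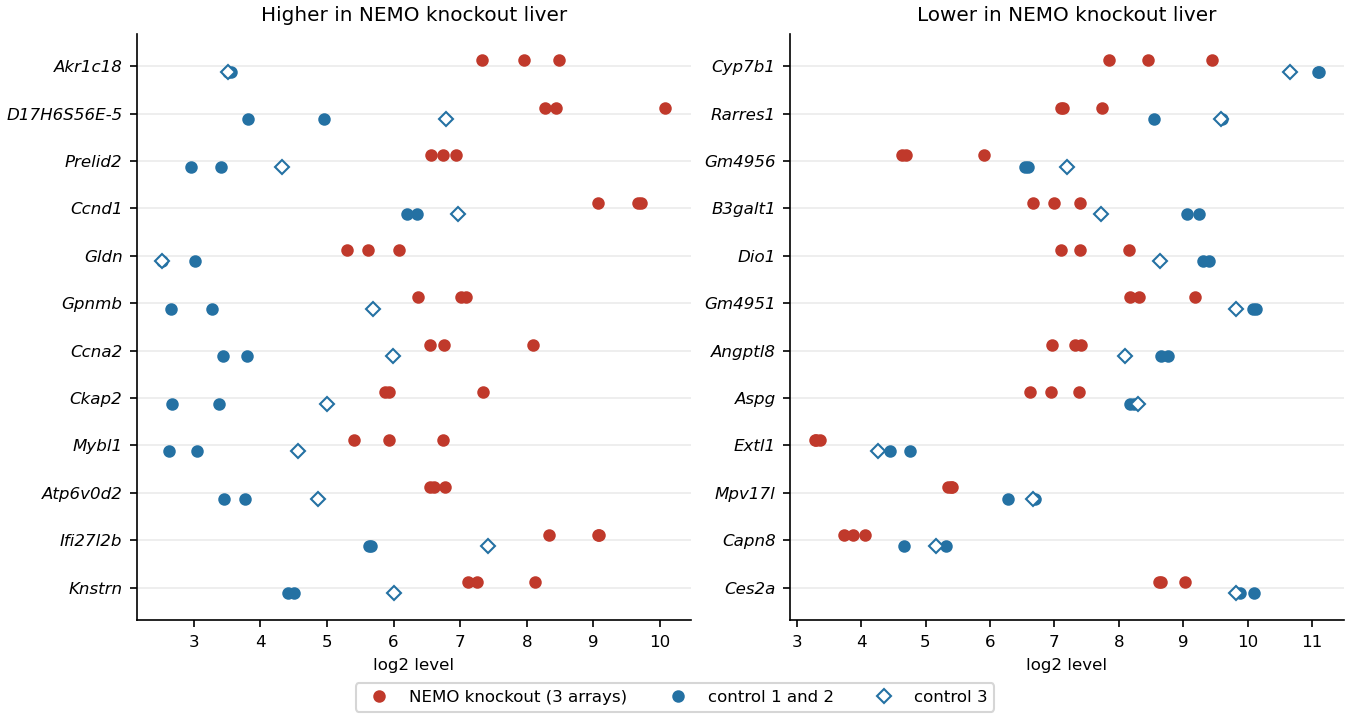
Log2 level (horizontal axis) of the 12 genes with the largest rises and the 12 with the largest falls in NEMO knockout liver among those called with and without control 3, 1 point per array. The 24 genes were chosen so that the 3 NEMO knockouts lie on one side of the 3 controls. Of all 18820 genes, called or not, 2016 had every NEMO knockout above every control and 2161 had every one below. In Gpnmb the open diamond of control 3 lies at 5.68, between the other controls and the NEMO knockouts, and in Akr1c18 it lies at 3.51 with the other controls.

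The largest falls were smaller than the largest rises. Cyp7b1, an oxysterol hydroxylase of the alternative bile acid pathway that is higher in male than in female mouse liver, lay at 9.44, 7.84 and 8.45 in NEMO knockouts 1 to 3, against 11.10, 11.10 and 10.66 in controls 1 to 3. The difference was -2.37 ± 0.35 (adjusted p = 0.0113, and -2.52 ± 0.38 without control 3, adjusted p = 0.0036), with NEMO knockout 2 the lowest. Rarres1, a retinoic acid responsive gene, lay at 7.74, 7.14 and 7.11 in the NEMO knockouts, against 9.60, 8.54 and 9.59 in the controls. The difference was -1.91 ± 0.26 (adjusted p = 0.00707, and -1.74 ± 0.28 without control 3, adjusted p = 0.00411). Dio1, the deiodinase that activates thyroid hormone in liver, lay at 8.16, 7.10 and 7.39 in the NEMO knockouts, against 9.40, 9.30 and 8.64 in the controls. The difference was -1.56 ± 0.28 (adjusted p = 0.022, and -1.80 ± 0.28 without control 3, adjusted p = 0.00369). Control 3 was the lowest control for Cyp7b1 and Dio1.

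Among the other falls were several enzymes and secreted factors. Angptl8, a secreted inhibitor of triglyceride clearance, lay at 7.41, 6.97 and 7.32 in the NEMO knockouts, against 8.65, 8.77 and 8.10 in the controls, and its difference of -1.27 ± 0.17 (adjusted p = 0.00568, and -1.47 ± 0.14 without control 3, adjusted p = 0.000198) held when any 1 array was left out. The asparaginase gene Aspg lay at 6.95, 7.38 and 6.62 in NEMO knockouts 1 to 3, against 8.17, 8.23 and 8.29 in controls 1 to 3, with the controls close together, and differed by -1.25 ± 0.21 (adjusted p = 0.0182, and -1.22 ± 0.24 without control 3, adjusted p = 0.0113). The carboxylesterase gene Ces2a lay at 8.66, 9.03 and 8.63 in the NEMO knockouts, against 9.88, 10.09 and 9.81 in the controls. The difference was -1.16 ± 0.18 (adjusted p = 0.0124, and -1.21 ± 0.20 without control 3, adjusted p = 0.0045). The galactosyltransferase gene B3galt1 differed by -1.66 ± 0.32 (adjusted p = 0.0309, and -2.13 ± 0.20 without control 3, adjusted p = 0.000198), the glycosyltransferase gene Extl1 by -1.18 ± 0.20 (adjusted p = 0.0181, and -1.29 ± 0.22 without control 3, adjusted p = 0.00527), the protease gene Capn8 by -1.16 ± 0.19 (adjusted p = 0.0153, and -1.11 ± 0.21 without control 3, adjusted p = 0.0104), and Mpv17l, of a family of mitochondrial and peroxisomal membrane proteins, by -1.17 ± 0.18 (adjusted p = 0.0124, and -1.11 ± 0.20 without control 3, adjusted p = 0.00707). Gm4956 (-1.70 ± 0.36, adjusted p = 0.0417, and -1.49 ± 0.38 without control 3, adjusted p = 0.0372) and Gm4951 (-1.45 ± 0.22, adjusted p = 0.0124, and -1.54 ± 0.24 without control 3, adjusted p = 0.00399) complete the 12.

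A further 1158 genes were called when control 3 was left out and not with all arrays weighted equally. Array weights, a fit that keeps control 3 and gives the less typical arrays a smaller weight, called 634 of them in the same direction. Ly6d, a membrane-anchored surface protein, lay at 10.60, 8.79 and 10.66 in the NEMO knockouts, against 4.68, 4.99 and 9.42 in the controls. Control 3 lay between NEMO knockouts 2 and 1, and the difference was 3.65 ± 1.00 (adjusted p = 0.0917) with it and 5.18 ± 0.56 (adjusted p = 0.000619) without it. Sprr1a, a cornified envelope protein of squamous epithelium, lay at 8.00, 8.15 and 9.01 in the NEMO knockouts, against 4.28, 4.38 and 8.58 in the controls and likewise overlapped through control 3 alone (2.64 ± 0.93, adjusted p = 0.169 with it, 4.05 ± 0.52, adjusted p = 0.00162 without it). The macrophage elastase gene Mmp12 lay at 8.87, 8.48 and 9.07 in NEMO knockouts 1 to 3, against 4.61, 3.44 and 7.55 in controls 1 to 3. The difference was 3.61 ± 0.87 (adjusted p = 0.0629) with control 3 and 4.79 ± 0.63 (adjusted p = 0.00182) without it. In these 3 genes controls 1 and 2 were at 4.99 or below and the other 4 arrays at 7.55 or above.

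The same held for falls. Serpina12, the gene of the adipokine vaspin, lay at 5.34, 4.53 and 4.90 in the NEMO knockouts, against 8.33, 8.21 and 5.26 in the controls. The difference was -2.34 ± 0.61 (adjusted p = 0.0807) with control 3 and -3.35 ± 0.23 (adjusted p = 4.53e-05) without it. Hsd3b5, a steroid dehydrogenase of male mouse liver, lay at 7.32, 5.15 and 6.47 in the NEMO knockouts, against 9.96, 10.23 and 5.63 in the controls. The difference was -2.29 ± 1.07 (adjusted p = 0.287) with control 3 and -3.78 ± 0.74 (adjusted p = 0.0111) without it. G0s2, an inhibitor of the main triglyceride lipase, lay at 7.04, 6.60 and 6.12 in the NEMO knockouts, against 8.95, 8.50 and 6.65 in the controls. The difference was -1.45 ± 0.45 (adjusted p = 0.126) with control 3 and -2.14 ± 0.23 (adjusted p = 0.000619) without it. In each of these 3 genes control 3 lay within the range of the NEMO knockouts and well below the other controls. Hamp2, a gene of the hepcidin family, differed by -2.14 ± 0.38 (adjusted p = 0.00672, and -1.64 ± 0.44 with control 3, adjusted p = 0.0867) without control 3 and the sulfotransferase gene Sult5a1 by -1.93 ± 0.40 (adjusted p = 0.0142, and -1.27 ± 0.51 with control 3, adjusted p = 0.219). Ces4a (-1.84 ± 0.26, adjusted p = 0.00278, and -1.22 ± 0.42 with control 3, adjusted p = 0.159), Fam47e (-1.78 ± 0.44, adjusted p = 0.0327, and -1.14 ± 0.53 with control 3, adjusted p = 0.287) and Cabyr (-1.69 ± 0.36, adjusted p = 0.0167, and -1.08 ± 0.47 with control 3, adjusted p = 0.252) also fell in that fit, and in the last 2 of these control 1 was well above control 2.

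Genes of mitosis and the spindle moved together. Of 30 measured genes 16 rose with all arrays and 28 without control 3, none fell, and the median difference was 1.80 and 2.27, beside medians of -0.04 and -0.05 over all genes. The list average was 5.44, 5.49 and 6.79 in NEMO knockouts 1 to 3, against 3.61, 3.78 and 4.98 in controls 1 to 3. NEMO knockout 3 was the highest array and control 3 the highest control. Ccna2, the gene of cyclin A2, lay at 6.55, 6.76 and 8.09 in NEMO knockouts 1 to 3, against 3.43, 3.80 and 6.00 in controls 1 to 3. The difference was 2.72 ± 0.57 (adjusted p = 0.0405) with control 3 and 3.52 ± 0.39 (adjusted p = 0.000654) without it. Ccnb2, a cyclin of entry into mitosis, lay at 7.88, 7.41 and 9.03 in the NEMO knockouts, against 5.25, 5.22 and 6.59 in the controls. The difference was 2.42 ± 0.41 (adjusted p = 0.0188, and 2.87 ± 0.36 without control 3, adjusted p = 0.00149). In both every NEMO knockout was above every control, for Ccna2 by the way it was chosen. Cdc20, an activator of the complex that triggers anaphase, lay at 6.18, 6.60 and 8.04 in the NEMO knockouts, against 3.87, 4.32 and 5.40 in the controls. The difference was 2.41 ± 0.45 (adjusted p = 0.0267, and 2.85 ± 0.43 without control 3, adjusted p = 0.00349). Plk1, a kinase of spindle assembly, lay at 6.31, 6.39 and 7.86 in the NEMO knockouts, against 3.67, 4.17 and 5.68 in the controls. The difference was 2.35 ± 0.49 (adjusted p = 0.0399, and 2.94 ± 0.40 without control 3, adjusted p = 0.00227). The apoptosis inhibitor and spindle protein gene Birc5 lay at 5.10, 4.89 and 5.40 in NEMO knockouts 1 to 3, against 3.69, 4.06 and 4.40 in controls 1 to 3. The difference was 1.08 ± 0.18 (adjusted p = 0.0187, and 1.25 ± 0.18 without control 3, adjusted p = 0.00262). Birc5 had the smallest difference of these 5 genes with the smallest spread. The A-Myb gene Mybl1 (2.61 ± 0.46, adjusted p = 0.021, and 3.19 ± 0.36 without control 3, adjusted p = 0.000746), the spindle protein gene Knstrn (2.52 ± 0.38, adjusted p = 0.0124, and 3.04 ± 0.27 without control 3, adjusted p = 0.000198) and the microtubule protein gene Ckap2 (2.71 ± 0.51, adjusted p = 0.0282, and 3.36 ± 0.40 without control 3, adjusted p = 0.001) rose as well. The proliferation marker Mki67 lay at 6.80, 6.99 and 8.36 in the NEMO knockouts, against 4.01, 4.29 and 6.41 in the controls and just missed the threshold with all arrays (2.48 ± 0.55, adjusted p = 0.0504), but passed it without control 3 (3.23 ± 0.39, adjusted p = 0.00116). Of the 30 genes 0 were called when NEMO knockout 3, control 1 or control 2 was left out, 6 without NEMO knockout 1 and 5 without NEMO knockout 2. Without control 3 the genes not called were Cdc25c and Mybl2. In RNA of whole liver fewer cells of a type and less RNA per cell cannot be told apart, and likewise more cells and more RNA per cell.

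Promoters of 4 of these genes are shown because the mitosis genes moved together and many genes of this class share 2 short motifs, the CCAAT box and the cell cycle homology region. The windows run from 250 bases before to 50 after the start of the gene, are from RefSeq (build GRCm38.p6) and are written 5′ to 3′ on the gene's strand. Capitals mark CCAAT and, for the homology region, TTTGAA or TTCGAA, each on either strand. Ccnb2 lies on the minus strand at chr9:70421505-70421804, Cdc20 on the minus strand at chr4:118437294-118437593, Plk1 on the plus strand at chr7:122159185-122159484 and Birc5 on the plus strand at chr11:117848987-117849286.
Ccnb2: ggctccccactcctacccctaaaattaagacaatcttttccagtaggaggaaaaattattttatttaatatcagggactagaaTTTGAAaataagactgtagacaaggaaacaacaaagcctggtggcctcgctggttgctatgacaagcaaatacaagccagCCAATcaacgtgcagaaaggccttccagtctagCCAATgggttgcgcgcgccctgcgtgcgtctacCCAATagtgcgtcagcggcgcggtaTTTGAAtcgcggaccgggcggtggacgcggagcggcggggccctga
Cdc20: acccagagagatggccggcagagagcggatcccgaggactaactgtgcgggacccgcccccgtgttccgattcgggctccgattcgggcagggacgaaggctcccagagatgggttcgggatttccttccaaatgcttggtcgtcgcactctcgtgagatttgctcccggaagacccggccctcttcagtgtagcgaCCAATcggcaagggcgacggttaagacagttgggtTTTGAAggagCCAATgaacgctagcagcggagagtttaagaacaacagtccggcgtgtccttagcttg
Plk1: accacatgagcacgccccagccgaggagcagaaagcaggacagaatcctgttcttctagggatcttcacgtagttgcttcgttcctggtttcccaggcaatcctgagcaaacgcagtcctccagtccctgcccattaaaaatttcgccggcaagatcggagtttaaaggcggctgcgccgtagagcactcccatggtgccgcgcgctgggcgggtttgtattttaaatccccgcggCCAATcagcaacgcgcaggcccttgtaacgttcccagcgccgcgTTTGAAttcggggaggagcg
Birc5: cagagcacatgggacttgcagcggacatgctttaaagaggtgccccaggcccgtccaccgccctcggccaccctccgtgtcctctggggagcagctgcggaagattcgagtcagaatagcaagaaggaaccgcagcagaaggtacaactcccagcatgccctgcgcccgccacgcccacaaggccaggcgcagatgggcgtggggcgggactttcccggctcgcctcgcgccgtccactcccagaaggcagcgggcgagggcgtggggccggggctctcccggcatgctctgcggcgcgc
The window of Ccnb2 holds 3 CCAAT boxes and 2 homology regions, that of Cdc20 2 and 1, and that of Plk1 1 of each. In the Birc5 window neither string was found. RefSeq windows were at hand for 25 of the 30 mitosis genes, 27 windows in all. Of these 81.5% held a CCAAT box, 85.2% a homology region and 77.8% both. Of 18155 windows of the genes measured 37.5%, 16.4% and 6.59% did. For the 28 collagen and matrix genes 19 windows were at hand, of which 36.8%, 31.6% and 10.5% did. The matches are a description of these strings and show neither binding nor use.

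DNA replication genes had smaller differences. Of 21 measured genes 1 rose with all arrays and 12 rose and 1 fell without control 3, with medians of 0.49 and 0.69. Rrm2, a subunit of the reductase that makes deoxyribonucleotides, lay at 6.62, 6.63 and 7.52 in the NEMO knockouts, against 5.00, 4.71 and 6.17 in the controls. The difference was 1.63 ± 0.33 (adjusted p = 0.0353, and 2.07 ± 0.24 without control 3, adjusted p = 0.000793). The replicative helicase gene Mcm6 lay at 6.38, 6.59 and 6.87 in the NEMO knockouts, against 4.49, 4.77 and 6.59 in the controls. The difference was 1.33 ± 0.42 (adjusted p = 0.131) with control 3 and 1.98 ± 0.22 (adjusted p = 0.000619) without it. Control 3 lay among the NEMO knockouts for Mcm6. Mcm10, an initiation factor, was the gene that fell without control 3. It lay at 5.49, 5.44 and 5.67 in NEMO knockouts 1 to 3, against 6.70, 7.04 and 5.29 in controls 1 to 3, a difference of -1.33 ± 0.24 (adjusted p = 0.0073) without control 3 and of -0.81 ± 0.37 (adjusted p = 0.273) with it, and here too control 3 was near the NEMO knockouts.

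**Figure D3:**
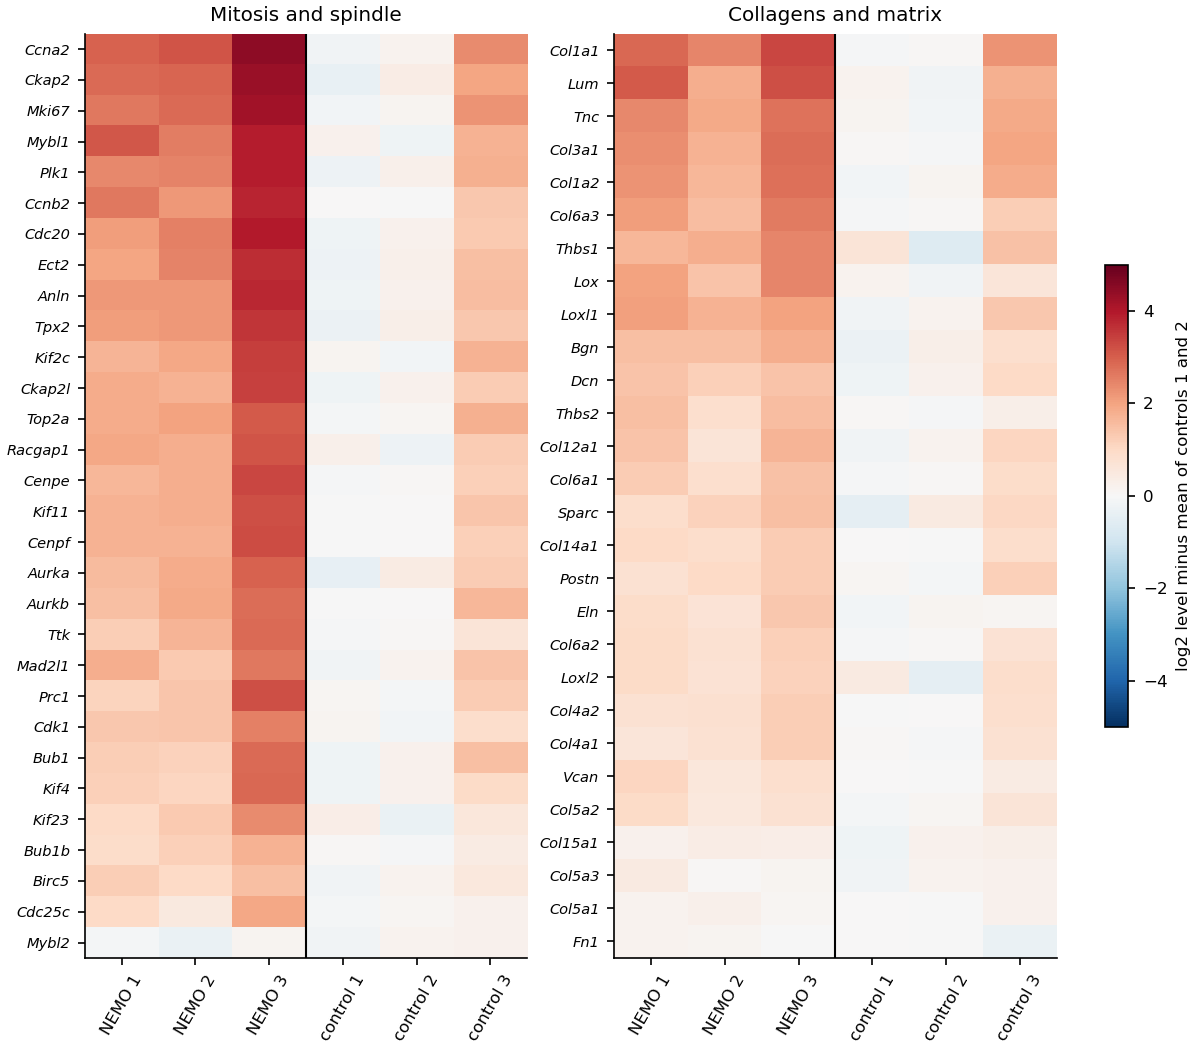
Heat maps of the 30 mitosis and spindle genes and the 28 collagen and matrix genes on the 6 arrays, coloured by log2 level minus the mean of controls 1 and 2 (scale from -5 to 5). NEMO knockout 3 has the strongest colour in the mitosis genes, where its list average is 6.79, and control 3 is above both other controls in 30 of the 30 mitosis and 26 of the 28 matrix genes.

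Cell cycle regulators outside mitosis split between drivers and brakes. Of 20 measured G1 cyclins and inhibitors 4 rose with all arrays and 5 without control 3. The genes called with all arrays other than Ccnd1 were brakes of the cycle. The p53-induced inhibitor gene Cdkn1a, of p21, lay at 8.38, 8.76 and 8.89 in the NEMO knockouts, against 6.57, 7.08 and 7.83 in the controls. The difference was 1.52 ± 0.25 (adjusted p = 0.0174, and 1.85 ± 0.18 without control 3, adjusted p = 0.000362). The retinoblastoma relative Rbl1 differed by 1.08 ± 0.21 (adjusted p = 0.0293, and 1.26 ± 0.21 without control 3, adjusted p = 0.00515) and the kinase inhibitor gene Cdkn2c, of p18, by 1.37 ± 0.29 (adjusted p = 0.0417, and 1.82 ± 0.14 without control 3, adjusted p = 8.21e-05). Of 18 p53 targets 3 rose with all arrays and 9 without control 3, with medians of 0.67 and 0.70. Eda2r, a death receptor of the tumour necrosis factor receptor family, lay at 5.06, 4.63 and 4.54 in the NEMO knockouts, against 3.26, 3.08 and 3.39 in the controls, a difference of 1.50 ± 0.20 (adjusted p = 0.00625, and 1.58 ± 0.23 without control 3, adjusted p = 0.00291) that held when any 1 array was left out. The lesion-bypass polymerase gene Polk differed by 0.91 ± 0.16 (adjusted p = 0.021, and 1.09 ± 0.14 without control 3, adjusted p = 0.00149). Mdm2, whose protein degrades p53, had 0.37 ± 0.12 (adjusted p = 0.134) with control 3 and 0.49 ± 0.10 (adjusted p = 0.0152) without it.

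Extracellular matrix genes had no call with all arrays weighted equally and calls without control 3. Of 28 measured collagens and matrix genes limma called 0 with all arrays (18 had an unadjusted p under 0.05), although all 28 had a difference above 0 (8259 of all 18820 genes did), and 14 rose without control 3, with medians of 0.89 and 1.19. The list average was 6.85, 6.56 and 7.09 in the NEMO knockouts, against 5.48, 5.51 and 6.44 in the controls. Col1a1, a chain of the main fibrillar collagen, lay at 8.33, 7.89 and 8.80 in the NEMO knockouts, against 5.38, 5.52 and 7.70 in the controls. The difference was 2.14 ± 0.57 (adjusted p = 0.0852) with control 3 and 2.89 ± 0.43 (adjusted p = 0.0033) without it. Col3a1, a second fibrillar collagen, lay at 8.26, 7.70 and 8.74 in NEMO knockouts 1 to 3, against 6.02, 5.87 and 7.92 in controls 1 to 3. The difference was 2.29 ± 0.39 without control 3 (adjusted p = 0.00545, and 1.63 ± 0.51 with it, adjusted p = 0.129). For Col3a1 control 3 was above NEMO knockout 2, and for Col1a1 it was below all 3. Tenascin C (Tnc) had 2.35 ± 0.35 (adjusted p = 0.00349, and 1.72 ± 0.48 with control 3, adjusted p = 0.0934) and lumican (Lum) 2.70 ± 0.51 (adjusted p = 0.00922, and 2.10 ± 0.56 with control 3, adjusted p = 0.0852) without control 3.

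Matrix proteases included 2 genes called with all arrays, out of 21. The collagenase gene Mmp13 lay at 6.13, 5.88 and 6.63 in the NEMO knockouts, against 3.68, 3.62 and 4.85 in the controls, and the difference was 2.16 ± 0.33 (adjusted p = 0.0124, and 2.56 ± 0.27 without control 3, adjusted p = 0.000583). The membrane protease gene Mmp14 lay at 7.28, 7.38 and 7.65 in the NEMO knockouts, against 6.26, 6.13 and 6.49 in the controls. The difference was 1.15 ± 0.20 (adjusted p = 0.0214, and 1.24 ± 0.22 without control 3, adjusted p = 0.00715). Both had the 3 NEMO knockouts above the 3 controls. The inhibitor gene Timp1 lay at 5.71, 4.71 and 5.05 in the NEMO knockouts, against 3.72, 3.80 and 5.27 in the controls, with control 3 among the NEMO knockouts (0.89 ± 0.39, adjusted p = 0.252 with control 3, 1.40 ± 0.30, adjusted p = 0.017 without it).

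Markers of hepatic stellate cells, the cells that make most scar matrix, moved with these genes. Of 21 measured markers 4 rose with all arrays and 12 without control 3, with medians of 0.99 and 1.19, and their average was 7.20, 7.16 and 7.42 in the NEMO knockouts, against 5.98, 6.26 and 6.82 in the controls. Their part in the matrix differences was not tested. Reln, a secreted glycoprotein, lay at 8.42, 8.47 and 8.82 in NEMO knockouts 1 to 3, against 7.44, 7.69 and 7.79 in controls 1 to 3. The difference was 0.93 ± 0.14 (adjusted p = 0.0114, and 1.01 ± 0.15 without control 3, adjusted p = 0.0033). The hepatocyte growth factor gene Hgf lay at 7.80, 7.77 and 7.97 in the NEMO knockouts, against 6.44, 6.62 and 7.25 in the controls. The difference was 1.07 ± 0.17 (adjusted p = 0.016, and 1.32 ± 0.12 without control 3, adjusted p = 0.000198). Cygb, a globin of quiescent stellate cells, lay at 7.98, 7.68 and 7.96 in the NEMO knockouts, against 5.51, 5.90 and 6.78 in the controls. The difference was 1.81 ± 0.39 (adjusted p = 0.0456, and 2.17 ± 0.38 without control 3, adjusted p = 0.00631). All 3 had higher levels in every NEMO knockout than in any control. The platelet-derived growth factor receptor gene Pdgfrb (1.13 ± 0.37, adjusted p = 0.142 with control 3, 1.58 ± 0.30, adjusted p = 0.0101 without it) and the smooth muscle actin gene Acta2 (1.35 ± 0.57, adjusted p = 0.241 and 1.94 ± 0.53, adjusted p = 0.0461) passed the threshold without control 3 and not with it.

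Macrophage markers had more calls without control 3 than with all arrays. Of 19 markers of recruited and lipid-associated macrophages 3 rose with all arrays, and without control 3 12 rose and 1 fell, with medians of 0.97 and 1.34. Besides Gpnmb and Atp6v0d2 the third was Clec7a, a receptor for fungal glucans, which lay at 7.70, 6.99 and 7.61 in the NEMO knockouts, against 5.20, 4.89 and 6.50 in the controls. The difference was 1.90 ± 0.35 (adjusted p = 0.0245, and 2.38 ± 0.24 without control 3, adjusted p = 0.000405). Lgals3, the gene of galectin 3, lay at 8.44, 7.60 and 8.11 in NEMO knockouts 1 to 3, against 5.90, 5.78 and 7.70 in controls 1 to 3 (2.21 ± 0.29 without control 3, adjusted p = 0.00176, and 1.59 ± 0.43 with it, adjusted p = 0.0917), and the receptor gene Trem2 had 1.19 ± 0.30 (adjusted p = 0.0342, and 0.96 ± 0.30 with control 3, adjusted p = 0.126) in that fit. The gene that fell there was Fabp5, a fatty acid carrier that hepatocytes also express, at 7.31, 7.16 and 7.26 in the NEMO knockouts, against 8.75, 7.80 and 6.08 in the controls (-1.03 ± 0.22, adjusted p = 0.0175, and -0.30 ± 0.46 with control 3, adjusted p = 0.77). Of 15 Kupffer cell markers 0 were called with all arrays (8 at an unadjusted p under 0.05) and 8 rose without control 3. Among them Cd68, a lysosomal protein of macrophages in general, lay at 8.71, 8.23 and 8.50 in the NEMO knockouts, against 6.58, 7.16 and 8.31 in the controls. The difference was 1.61 ± 0.22 (adjusted p = 0.00227, and 1.13 ± 0.34 with control 3, adjusted p = 0.115). Clec4f, a lectin of resident Kupffer cells, lay at 8.69, 9.07 and 8.94 in the NEMO knockouts, against 8.85, 8.73 and 9.19 in the controls, with a difference of 0.11 ± 0.21 (adjusted p = 0.79, and -0.02 ± 0.20 with control 3, adjusted p = 0.97) without control 3, and Timd4, also of resident cells, at 6.55, 6.79 and 5.87 in NEMO knockouts 1 to 3, against 6.51, 6.29 and 6.85 in controls 1 to 3 (-0.00 ± 0.23, adjusted p = 0.998, and -0.15 ± 0.22 with control 3, adjusted p = 0.753). The Kupffer cell list averaged 7.82, 7.81 and 7.69 in the NEMO knockouts, against 7.18, 7.25 and 8.02 in controls 1 to 3, so that control 3 was the highest array.

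Antigen presentation genes had no call with all arrays weighted equally and calls without control 3, as the matrix genes did. With array weights and control 3 kept, 7 of 15 antigen presentation genes and 14 of 28 matrix genes rose. Of 15 measured MHC class II and antigen presenting cell genes 0 were called with all arrays (11 at an unadjusted p under 0.05) and 8 rose without it, with medians of 0.80 and 1.06. Cd74, the invariant chain, lay at 10.78, 9.92 and 10.20 in the NEMO knockouts, against 8.30, 7.82 and 9.63 in the controls. The difference was 1.72 ± 0.44 (adjusted p = 0.077) with control 3 and 2.24 ± 0.37 (adjusted p = 0.00483) without it. The class II chain gene H2-Ab1 lay at 10.25, 9.33 and 9.57 in the NEMO knockouts, against 7.68, 7.02 and 8.97 in the controls (2.37 ± 0.45 without control 3, adjusted p = 0.00991, and 1.82 ± 0.50 with it, adjusted p = 0.0917), and the class II transactivator gene Ciita had 1.40 ± 0.26 (adjusted p = 0.00826, and 1.11 ± 0.28 with control 3, adjusted p = 0.0704). NEMO knockout 1 was the highest array for all 3. Lymphocyte and neutrophil markers had fewer calls. Of 18 T and natural killer cell markers and 9 B cell markers limma called 0 with or without control 3. At an unadjusted p under 0.05 these were 3 and 0 with it, where 3379 of all 18820 genes were, and 3 and 0 without it. Of 11 neutrophil markers 1, Camp, fell without control 3 (-0.74 ± 0.17, adjusted p = 0.0252, and -0.52 ± 0.19 with control 3, adjusted p = 0.192), where 2.11% of all genes did. The averages of these 3 lists lay between 3.26 and 3.95 on the 6 arrays.

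Some inflammatory and NF-kB target genes were called. Of all genes 1.01% were called higher with all arrays and 5.38% without control 3, and 0.319% and 2.11% lower. Of 24 NF-kB targets 1 rose with all arrays and 3 without control 3, with medians of 0.09 and 0.13. The 1 was the cytokine gene Tnf, which lay at 4.20, 3.87 and 3.85 in the NEMO knockouts, against 2.56, 3.22 and 3.22 in the controls. The difference was 0.97 ± 0.21 (adjusted p = 0.0433, and 1.08 ± 0.23 without control 3, adjusted p = 0.0164). Tnf was dim, with no level on the 6 arrays above the range of the array medians, 4.03 to 4.23. The adhesion molecule gene Vcam1 lay at 7.91, 7.76 and 7.89 in NEMO knockouts 1 to 3, against 5.93, 6.03 and 7.59 in controls 1 to 3. The difference was 1.33 ± 0.37 (adjusted p = 0.0922) with control 3 and 1.87 ± 0.23 (adjusted p = 0.00128) without it. The feedback inhibitor genes Nfkbia (-0.25 ± 0.17, adjusted p = 0.414, and -0.14 ± 0.16 with control 3, adjusted p = 0.681) and Tnfaip3 (0.04 ± 0.19, adjusted p = 0.917, and -0.01 ± 0.17 with control 3, adjusted p = 0.98) did not pass without control 3. Of 25 chemokine ligands 1 rose with all arrays and 5 without control 3. It was Ccl9, a chemokine of myeloid cells, at 9.78, 9.97 and 10.15 in the NEMO knockouts, against 9.11, 9.14 and 9.35 in the controls (0.77 ± 0.15, adjusted p = 0.0332, and 0.84 ± 0.17 without control 3, adjusted p = 0.0113). Cxcl14 lay at 7.69, 6.44 and 7.93 in the NEMO knockouts, against 4.77, 4.47 and 6.73 in the controls. The difference was 2.73 ± 0.37 without control 3 (adjusted p = 0.00215, and 2.03 ± 0.52 with it, adjusted p = 0.0761). Of 21 interferon-stimulated genes 0 were called with all arrays (2 at an unadjusted p under 0.05) and 1, Ifit1, fell without control 3 (-0.81 ± 0.22, adjusted p = 0.046, and -0.47 ± 0.27 with control 3, adjusted p = 0.388). In the list of 20 genes of tumour necrosis factor and death receptor signalling 2 rose with all arrays, Tnf and the receptor gene Tnfrsf12a. Tnfrsf12a lay at 6.75, 6.48 and 7.58 in the NEMO knockouts, against 5.46, 5.35 and 5.43 in the controls (1.52 ± 0.32, adjusted p = 0.0417, and 1.53 ± 0.36 without control 3, adjusted p = 0.0267). Without control 3 the list had 4 genes higher and 1 lower. Among the higher ones were Mlkl (1.33 ± 0.16, adjusted p = 0.00132, and 0.99 ± 0.24 with control 3, adjusted p = 0.0629) and the receptor gene Tnfrsf10b (1.31 ± 0.35, adjusted p = 0.0455, and 1.17 ± 0.32 with control 3, adjusted p = 0.0905). The lower one was Bid (-0.53 ± 0.15, adjusted p = 0.0486, and -0.47 ± 0.13 with control 3, adjusted p = 0.102).

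NRF2 targets depended on control 3. With it 0 of 29 were called (4 at an unadjusted p under 0.05) and the median was -0.14; without it 8 rose and the median was 0.33. The list average was 8.72, 8.59 and 8.58 in the NEMO knockouts, against 8.10 and 8.36 in controls 1 and 2 and 10.33 in control 3. Srxn1, an enzyme that restores oxidised peroxiredoxins, lay at 7.75, 7.60 and 7.89 in NEMO knockouts 1 to 3, against 6.55, 6.65 and 9.44 in controls 1 to 3. The difference was 0.20 ± 0.55 (adjusted p = 0.88) with control 3 and 1.15 ± 0.10 (adjusted p = 0.000198) without it. The glutathione transferase gene Gstm3 lay at 12.56, 12.47 and 12.72 in the NEMO knockouts, against 9.77, 11.34 and 12.99 in the controls. The difference was 2.03 ± 0.31 without control 3 (adjusted p = 0.00365, and 1.22 ± 0.54 with it, adjusted p = 0.26). Gpx2 lay at 3.23, 3.82 and 3.51 in the NEMO knockouts, against 2.32, 2.30 and 9.16 in the controls and Nqo1 as given above, and both changed sign, Gpx2 with -1.07 ± 1.32 (adjusted p = 0.707) with control 3 and 1.21 ± 0.20 (adjusted p = 0.00442) without it, Nqo1 with -0.63 ± 0.81 (adjusted p = 0.72) and 0.75 ± 0.19 (adjusted p = 0.034). For all 4 genes the NEMO knockouts lay above controls 1 and 2 and below control 3. Slc7a11 had 0.37 ± 0.23 (adjusted p = 0.366, and -1.88 ± 1.31 with control 3, adjusted p = 0.472) and Cbr3 0.45 ± 0.17 (adjusted p = 0.148, and -1.78 ± 1.29 with control 3, adjusted p = 0.493) without control 3, and Gclc, of the enzyme that starts glutathione synthesis, 0.08 ± 0.11 (adjusted p = 0.716, and -0.30 ± 0.24 with control 3, adjusted p = 0.54).

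Among hepatocyte identity genes the calls were falls of transcription factors without control 3. Of 20 secreted hepatocyte proteins and 21 acute phase proteins 0 were called with or without control 3 (1 and 4 at an unadjusted p under 0.05 with it, 0 and 7 without it). Of all 18820 genes 3379 had such a p with control 3. The list of secreted proteins averaged 12.10 to 12.17 in the NEMO knockouts and 12.03 to 12.22 in the controls. Of 17 hepatocyte transcription factors 4 had a difference above 0 with all arrays and 2 without control 3, beside 8259 and 8059 of all 18820 genes. With all arrays 0 were called (6 at an unadjusted p under 0.05), and 3 fell without control 3, where 2.11% of all genes did. They were Cebpa, a driver of hepatocyte differentiation, at 8.51, 8.67 and 8.16 in the NEMO knockouts, against 9.33, 9.29 and 8.64 in the controls (-0.64 ± 0.18, adjusted p = 0.0965 with control 3, -0.86 ± 0.14, adjusted p = 0.00527 without it), Prox1 at 8.25, 7.59 and 7.66 in NEMO knockouts 1 to 3, against 8.90, 8.51 and 8.19 in controls 1 to 3 (-0.87 ± 0.19, adjusted p = 0.0191, and -0.70 ± 0.20 with control 3, adjusted p = 0.0939) and Onecut1 at 7.31, 8.02 and 8.30 in the NEMO knockouts, against 9.10, 9.45 and 6.50 in the controls (-1.40 ± 0.39, adjusted p = 0.0496, and -0.47 ± 0.63 with control 3, adjusted p = 0.731). Control 3 was the lowest of all 6 arrays for Onecut1. Hnf4a, a central factor of the liver, had -0.22 ± 0.16 (adjusted p = 0.431, and -0.15 ± 0.14 with control 3, adjusted p = 0.602) without control 3. The bile duct list had 0 of 14 genes called with all arrays (4 at an unadjusted p under 0.05). Without control 3 Onecut1, which it shares, fell, and the keratin genes Krt8 and Krt18, which hepatocytes express too, rose by 1.50 ± 0.17 (adjusted p = 0.000738, and 1.11 ± 0.27 with control 3, adjusted p = 0.0611) and 1.51 ± 0.19 (adjusted p = 0.00152, and 1.15 ± 0.27 with control 3, adjusted p = 0.057), while Krt7 had 0.49 ± 0.91 (adjusted p = 0.789, and 0.40 ± 0.79 with control 3, adjusted p = 0.828) and Krt19 0.45 ± 0.75 (adjusted p = 0.763, and 0.41 ± 0.65 with control 3, adjusted p = 0.779), with double knockout 3 in the spread.

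The calls among male-biased liver genes were all falls. Of 16 measured 3 fell with all arrays and 6 without control 3, and the median was -0.46 and -0.53. Those called with all arrays were Cyp7b1 and the glucuronosyltransferase genes Ugt2b1 (-0.48 ± 0.09, adjusted p = 0.0328, and -0.42 ± 0.10 without control 3, adjusted p = 0.0259) and Ugt2b38 (-0.72 ± 0.15, adjusted p = 0.0441, and -0.57 ± 0.15 without control 3, adjusted p = 0.0351). Elovl3, a fatty acid elongase, had -1.15 ± 0.27 (adjusted p = 0.0267, and -0.78 ± 0.32 with control 3, adjusted p = 0.23) without control 3, and control 3 itself lay below NEMO knockouts 1 and 2. Of 14 female-biased genes 1 rose with all arrays, the peroxisomal transporter gene Abcd2, at 7.08, 6.15 and 7.01 in the NEMO knockouts, against 4.44, 4.39 and 4.68 in the controls (2.24 ± 0.47, adjusted p = 0.0433, and 2.33 ± 0.54 without control 3, adjusted p = 0.0239). Without control 3 the list had 2 higher, Abcd2 and Acot3 (1.20 ± 0.31, adjusted p = 0.0361, and 0.90 ± 0.32 with control 3, adjusted p = 0.171). The major urinary protein gene Mup20 had -0.04 ± 0.07 (adjusted p = 0.79, and -0.02 ± 0.08 without control 3, adjusted p = 0.9) and Igf1 0.15 ± 0.11 (adjusted p = 0.498, and 0.10 ± 0.12 without control 3, adjusted p = 0.667).

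Bile acid and drug metabolism genes had scattered calls. Of 25 bile acid genes Cyp7b1 fell, and Slc10a2, the bile acid importer best known from ileum and bile ducts, rose to 8.00, 8.19 and 8.36 in the NEMO knockouts, against 7.25, 6.82 and 7.05 in the controls (1.14 ± 0.21, adjusted p = 0.0245, and 1.15 ± 0.24 without control 3, adjusted p = 0.0145), as did the phospholipid exporter gene Abcb4 (0.50 ± 0.11, adjusted p = 0.044, and 0.55 ± 0.12 without control 3, adjusted p = 0.017). Cyp8b1, the sterol hydroxylase of cholic acid synthesis, lay at 8.84, 8.62 and 6.43 in NEMO knockouts 1 to 3, against 9.76, 9.66 and 9.20 in controls 1 to 3 (-1.57 ± 0.50, adjusted p = 0.135, and -1.74 ± 0.56 without control 3, adjusted p = 0.0863), with NEMO knockout 3 more than 2 units below the others. The uptake carrier gene Slc10a1 (-0.53 ± 0.14, adjusted p = 0.0436, and -0.42 ± 0.14 with control 3, adjusted p = 0.154) and the conjugating enzyme gene Baat (-0.62 ± 0.15, adjusted p = 0.032, and -0.48 ± 0.16 with control 3, adjusted p = 0.154) fell without control 3, with no call with all arrays. Of 22 conjugating enzymes and carboxylesterases 3 fell with all arrays, and without control 3 7 fell and 1 rose. The 3 were Ces2a, Ugt2b1 and Ugt2b38. Of 27 drug-metabolising P450 genes 0 were called with all arrays (11 at an unadjusted p under 0.05), and without control 3 3 fell, among them Cyp2j5 (-0.54 ± 0.14, adjusted p = 0.0344, and -0.47 ± 0.12 with control 3, adjusted p = 0.0852), and 1, Cyp2c55, rose (1.25 ± 0.32, adjusted p = 0.0344, and 1.05 ± 0.30 with control 3, adjusted p = 0.0972).

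Lipid genes moved in both directions. Of 22 lipogenic genes 1, Angptl8, fell with all arrays, and without control 3 4 fell and 1 rose. Mlxipl, which encodes the carbohydrate-responsive factor ChREBP, lay at 8.98, 9.36 and 9.04 in the NEMO knockouts, against 9.83, 10.05 and 9.30 in the controls (-0.81 ± 0.14 without control 3, adjusted p = 0.00577, and -0.60 ± 0.17 with it, adjusted p = 0.104), its target Thrsp had -1.01 ± 0.23 (adjusted p = 0.0229, and -0.86 ± 0.22 with control 3, adjusted p = 0.0761) and the triglyceride synthesis gene Dgat2 -0.60 ± 0.10 (adjusted p = 0.00567, and -0.41 ± 0.15 with control 3, adjusted p = 0.179). The elongase gene Elovl6 rose by 0.45 ± 0.12 (adjusted p = 0.0392, and 0.64 ± 0.15 with control 3, adjusted p = 0.0596). Of 20 lipid droplet and steatosis genes 0 were called with all arrays (5 at an unadjusted p under 0.05), and without control 3 3 rose and 1, G0s2, fell. Cd36, a fatty acid importer, lay at 9.42, 9.14 and 9.22 in the NEMO knockouts, against 7.07, 7.37 and 10.08 in the controls, the highest array being control 3 (1.09 ± 0.56, adjusted p = 0.331 with control 3, 2.04 ± 0.13, adjusted p = 3.76e-05 without it). The lipoprotein lipase gene Lpl lay at 8.90, 8.80 and 9.17 in the NEMO knockouts, against 7.66, 7.57 and 8.72 in the controls (1.34 ± 0.19, adjusted p = 0.00287, and 0.97 ± 0.27 with control 3, adjusted p = 0.0937) and the nuclear receptor gene Pparg had 0.87 ± 0.19 (adjusted p = 0.0194, and 0.50 ± 0.27 with control 3, adjusted p = 0.352). In fatty acid oxidation 1 of 24 genes rose with all arrays, the mitochondrial thioesterase gene Acot2, at 9.52, 9.35 and 9.59 in NEMO knockouts 1 to 3, against 7.36, 7.99 and 8.26 in controls 1 to 3 (1.61 ± 0.21, adjusted p = 0.00559, and 1.81 ± 0.20 without control 3, adjusted p = 0.000654), a call that held when any 1 array was left out. Pdk4, a brake on pyruvate oxidation, had 1.43 ± 0.32 (adjusted p = 0.0515) with control 3 and 1.75 ± 0.30 (adjusted p = 0.00619) without it. The 4 of these 24 genes that rose without control 3 were Acot2, Pdk4, Acot3 and Acot4. Of 20 cholesterol synthesis genes 0 were called with all arrays (4 at an unadjusted p under 0.05). A rise of 0.33 to 0.70 was called in 5 of them without control 3, where 5.38% of all genes were called higher. Hmgcs1, an early enzyme of the pathway, lay at 10.67, 10.94 and 10.89 in the NEMO knockouts, against 10.15, 10.12 and 10.81 in the controls (0.70 ± 0.11, adjusted p = 0.00396, and 0.47 ± 0.16 with control 3, adjusted p = 0.158), with control 3 among the NEMO knockouts.

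Cytoskeleton genes had a median of 0.90 with all arrays and 1.16 without control 3, with 4 and 12 of 22 higher and none lower. Tuba8, a tubulin, lay at 6.60, 6.02 and 6.50 in the NEMO knockouts, against 4.44, 5.03 and 4.83 in the controls, and its difference of 1.60 ± 0.19 (adjusted p = 0.0034, and 1.64 ± 0.21 without control 3, adjusted p = 0.00177) held when any 1 array was left out. Tubb6 lay at 7.37, 7.39 and 8.57 in the NEMO knockouts, against 5.27, 5.06 and 6.28 in the controls (2.24 ± 0.40, adjusted p = 0.0214, and 2.62 ± 0.38 without control 3, adjusted p = 0.00312) and Tubb2a at 9.34, 9.52 and 9.72 in NEMO knockouts 1 to 3, against 7.82, 8.58 and 8.66 in controls 1 to 3 (1.17 ± 0.20, adjusted p = 0.018, and 1.32 ± 0.20 without control 3, adjusted p = 0.00338). In these 3 genes every NEMO knockout was above every control. Of 19 AP-1 and immediate early genes Jun, at 7.72, 8.15 and 8.08 in the NEMO knockouts, against 6.04, 6.36 and 6.88 in the controls (1.55 ± 0.25, adjusted p = 0.016, and 1.78 ± 0.24 without control 3, adjusted p = 0.00227), and Jund (0.63 ± 0.12, adjusted p = 0.0267, and 0.60 ± 0.13 without control 3, adjusted p = 0.0194) rose with all arrays, and 6 rose without control 3. Of 22 annexin and S100 genes 0 were called with all arrays (7 at an unadjusted p under 0.05). A rise was called in 7 of them without control 3, led by Anxa2 at 7.88, 7.15 and 8.37 in the NEMO knockouts, against 5.19, 4.96 and 6.83 in the controls (2.73 ± 0.40, adjusted p = 0.00303, and 2.14 ± 0.48 with control 3, adjusted p = 0.0513) and S100a11 (2.57 ± 0.43, adjusted p = 0.00527, and 1.86 ± 0.56 with control 3, adjusted p = 0.116). Of 22 lysosomal genes 2 rose with all arrays, Atp6v0d2 and the cholesterol exporter gene Npc1 at 9.24, 9.10 and 8.96 in the NEMO knockouts, against 8.53, 8.44 and 8.73 in the controls (0.53 ± 0.10, adjusted p = 0.0293, and 0.61 ± 0.10 without control 3, adjusted p = 0.00473), and 7 without control 3. Oncofetal and liver tumour genes had 4 of 22 higher with all arrays and 8 without control 3. Besides Akr1c18 the guidance receptor gene Robo1 lay at 7.84, 7.53 and 7.81 in NEMO knockouts 1 to 3, against 5.57, 5.73 and 6.49 in controls 1 to 3 (1.80 ± 0.21, adjusted p = 0.00336, and 2.08 ± 0.15 without control 3, adjusted p = 4.53e-05, a call that held when any 1 array was left out), the RNA-binding gene Igf2bp3 at 4.76, 5.04 and 5.43 in the NEMO knockouts, against 3.79, 3.56 and 3.98 in the controls (1.30 ± 0.19, adjusted p = 0.0114, and 1.40 ± 0.21 without control 3, adjusted p = 0.00349) and the Golgi protein gene Golm1 had 1.40 ± 0.30 (adjusted p = 0.0467, and 1.56 ± 0.33 without control 3, adjusted p = 0.0157), while alpha-fetoprotein (Afp) had 0.47 ± 0.31 (adjusted p = 0.455, and 0.68 ± 0.33 without control 3, adjusted p = 0.247).

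**Figure D4:**
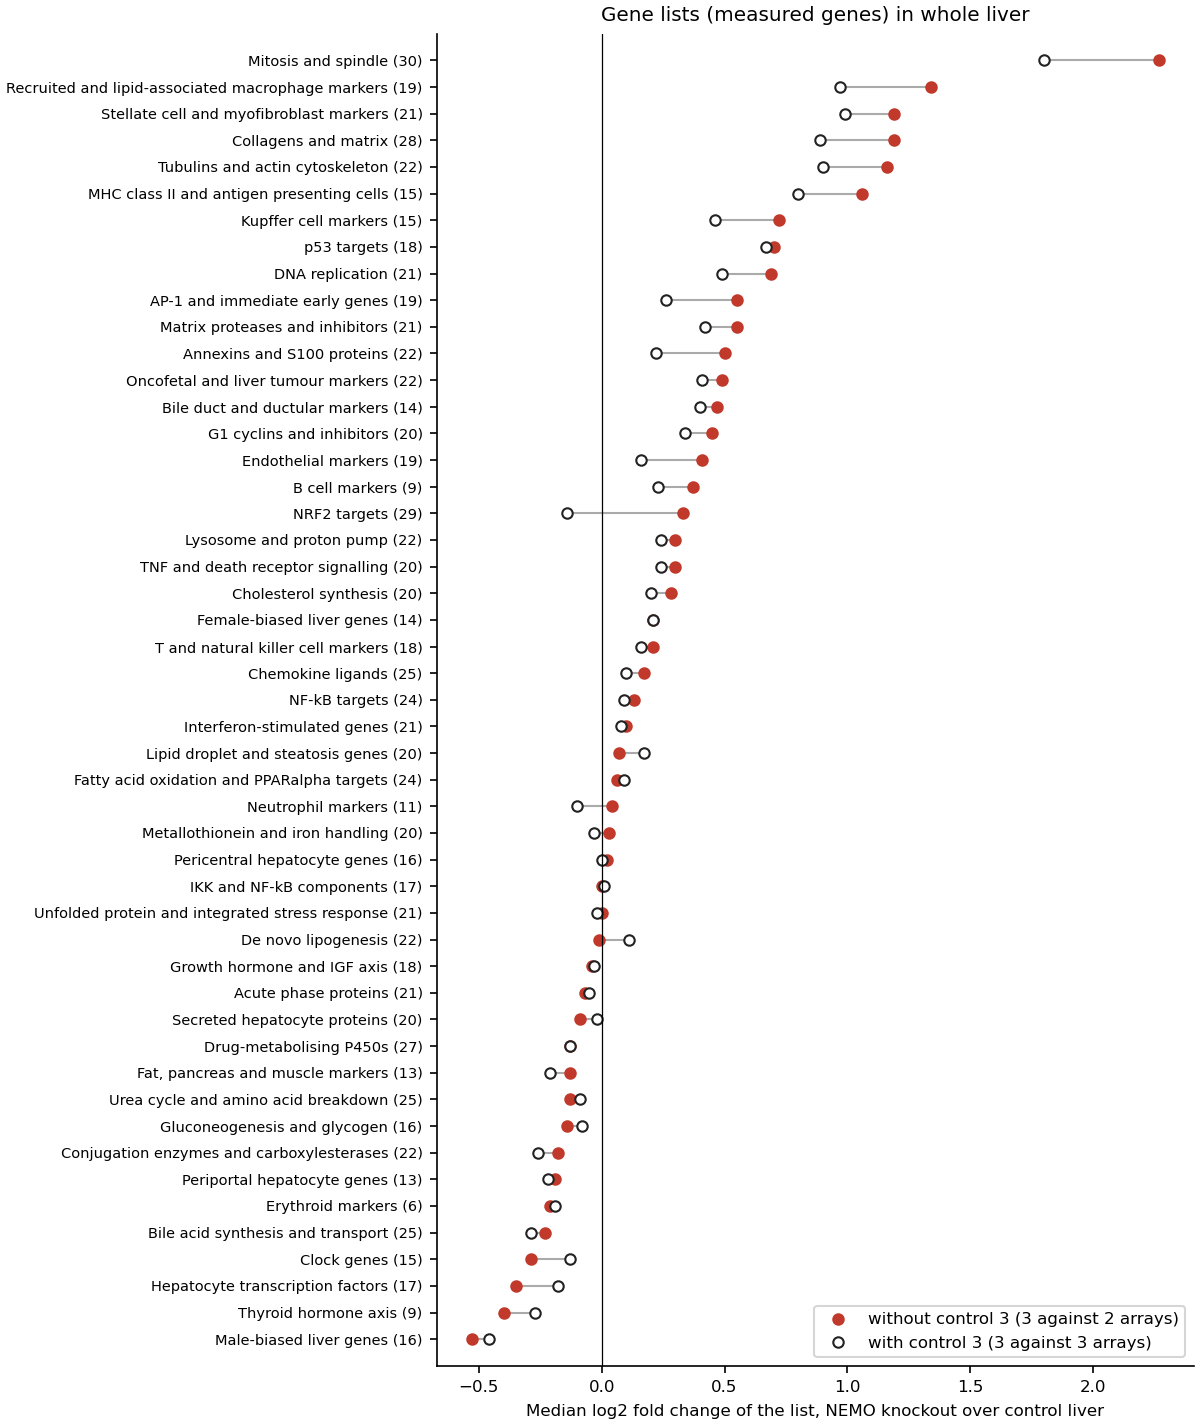
Median log2 fold change of the measured genes of each of 49 lists (number measured in brackets), NEMO knockout over control liver, with control 3 (open circles, 3 against 3 arrays) and without it (filled circles, 3 against 2 arrays). Mitosis and spindle genes are at the top with 2.27 without control 3 and male-biased genes at the bottom with -0.53, and the NRF2 targets cross 0.

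Scaling each array to its median would lower the median difference of all genes by 0.19, to -0.23. Lists with medians near 0 are therefore without a settled direction. The median of the NF-kB targets was then -0.10, that of the chemokines -0.09, of the lipogenic genes -0.08 and of the endothelial markers -0.03. The mitosis list stayed at 1.61 and the male-biased genes at -0.65.

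The same deletion was set beside 2 other settings, whose arrays are distinct from those above. In KEAP1-deficient liver (double knockouts against KEAP1 knockouts, 3 arrays each) limma called 0 genes, while 1429 passed an unadjusted threshold of 0.05. Without double knockout 3 and control 3 10 genes were called (0.0531%). Slc7a11 and Srxn1, the lipase gene Lpl and the scavenger receptor gene Marco were higher among these, and Serpina12 was lower. In cultured hepatocytes 1252 genes were called, 867 higher (4.61%) and 385 lower (2.05%). Of the 191 genes higher in whole liver 169 were above 0 in KEAP1-deficient liver and 178 in hepatocytes, where 47.5% and 46.4% of all genes were, and 98 were called higher in hepatocytes. Of the 60 lower genes 48 and 44 were below 0 in these settings, and 18 were called lower in hepatocytes (12 without the 2 hepatocyte arrays with high Xist). In hepatocytes none of the 251 was called in the opposite direction. In KEAP1-deficient liver, with 0 genes called, no such call could arise. Their median difference was 1.19 in liver, 0.29 in KEAP1-deficient liver and 0.69 in hepatocytes for the higher genes, and -0.69, -0.24 and -0.32 for the lower ones. The liver values are larger in part by choice, since the genes were picked by that comparison.

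Mitosis genes had a median of 1.18 in KEAP1-deficient liver and of 2.59 in hepatocytes, where 29 of 30 rose. Ccnb2, for one, lay at 6.47, 6.82 and 7.09 in double knockout livers, against 5.51, 5.05 and 5.55 in KEAP1 knockout livers, and at 7.75, 9.01 and 8.69 in NEMO knockout hepatocytes, against 5.03, 5.21 and 5.07 in control hepatocytes. Its difference was 1.42 ± 0.41 (adjusted p = 0.642) in KEAP1-deficient liver and 3.38 ± 0.32 (adjusted p = 4.01e-05) in hepatocytes. Stellate cell markers rose in hepatocyte cultures too, 18 of 21, as did 16 of 19 endothelial and 12 of 15 Kupffer cell markers, although the cultures are labelled hepatocytes. The part of these cells in the hepatocyte differences was not tested. In whole liver 0 of 19 endothelial markers were called with all arrays (2 at an unadjusted p under 0.05). Without control 3 the list had 2 higher (8 at an unadjusted p under 0.05), where 5.38% of all genes were called higher. The whole-liver median of these markers was 0.16 with control 3 and 0.41 without it. Plvap, a protein of fenestrated endothelium, lay at 7.20, 6.68 and 7.06 in NEMO knockout hepatocytes, against 4.07, 4.59 and 4.39 in control hepatocytes, a difference of 2.63 ± 0.18 (adjusted p = 5.86e-06), beside 0.89 ± 0.23 (adjusted p = 0.0759, and 1.12 ± 0.21 without control 3, adjusted p = 0.00965) in whole liver. Male-biased genes had a median of -0.18 in KEAP1-deficient liver. In 2 of the hepatocyte arrays of the series, control 1 among those used here, Xist was high although the labels give male mice, and without both 1051 genes were called. The hepatocyte median of the 16 male-biased genes was 0.83 with all arrays and -0.09 without both, so that its direction rested on control 1. Hsd3b5 lay at 8.90, 8.61 and 7.99 in NEMO knockout hepatocytes, against 3.09, 10.31 and 9.53 in control hepatocytes, with control 1 far below all other arrays. Its difference was 0.85 ± 1.32 (adjusted p = 0.788) with all arrays, and without both it fell (-1.42 ± 0.27, adjusted p = 0.00794), the 1 call among these genes in either fit. Cyp7b1 lay at 10.73, 10.40 and 10.54 in NEMO knockout hepatocytes, against 8.21, 10.85 and 11.37 in control hepatocytes. It had a difference of 0.41 ± 0.69 (adjusted p = 0.807) with all arrays, and one below 0 that was not called without both (-0.55 ± 0.41, adjusted p = 0.551). Without both arrays 29 mitosis, 16 stellate cell, 16 endothelial and 12 Kupffer cell genes of the lists above rose.

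Single genes were tested for a difference between settings. Akr1c18 lay at 3.39, 3.45 and 4.10 in double knockout livers, against 3.19, 2.99 and 2.66 in KEAP1 knockout livers, and its NEMO effect was smaller there than in KEAP1-intact liver by 3.70 ± 0.38 (adjusted p = 0.00444). Gldn lay at 2.79, 2.77 and 2.53 in double knockout livers, against 2.94, 2.74 and 2.81 in KEAP1 knockout livers, with a difference of effects of 3.11 ± 0.28 (adjusted p = 0.00218). These were the 2 genes called with all arrays. With control 3 and double knockout 3 left out 65 genes were called (0.345%). Ccnd1 was among them at 2.98 ± 0.27 (adjusted p = 0.00128), and lay at 6.87, 6.72 and 8.10 in double knockout livers, against 6.25, 6.66 and 6.78 in KEAP1 knockout livers. Nfe2l2 was at 1.08 ± 0.13 (adjusted p = 0.00331), Cdkn1a at 1.55 ± 0.24 (adjusted p = 0.0237), Eda2r at 1.73 ± 0.29 (adjusted p = 0.0291) and Robo1 at 1.82 ± 0.18 (adjusted p = 0.00128). Col1a1 (1.99 ± 0.29, adjusted p = 0.0175), Cygb (1.86 ± 0.21, adjusted p = 0.00255) and Cd74 (2.06 ± 0.35, adjusted p = 0.0315) of the matrix, stellate and antigen presentation lists were called as well. In this test of a difference between settings all 3 had no call with all arrays.

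Between whole liver and hepatocytes 13 genes differed in their NEMO effect (0.0691%), 3 with a larger value in liver and 10 with a smaller one. Without the 4 arrays in doubt (control 3 and double knockout 3 of the livers, control 1 and double knockout 3 of the hepatocytes) 12 were called, 10 larger and 2 smaller in liver, and 1, Prelid2, was called in both fits. Prelid2, at 3.69, 4.19 and 4.34 in NEMO knockout hepatocytes, against 4.29, 3.75 and 5.28 in control hepatocytes, had a larger effect in liver by 3.55 ± 0.65 (adjusted p = 0.0374), and without the 4 arrays the difference of effects was again above 0 (4.01 ± 0.60, adjusted p = 0.016). Akr1c18, at 4.50, 6.40 and 5.20 in NEMO knockout hepatocytes, against 4.42, 3.57 and 3.35 in control hepatocytes, had the larger effect in liver by 2.81 ± 0.51 (adjusted p = 0.0374). Plvap had the smaller effect in liver (-1.74 ± 0.30, adjusted p = 0.0374 for liver minus hepatocytes). Without the 4 arrays neither was called (Akr1c18 2.48 ± 0.53, adjusted p = 0.0812, and Plvap -1.37 ± 0.30, adjusted p = 0.0844). Gldn, at 5.80, 5.77 and 6.52 in NEMO knockout hepatocytes, against 3.13, 3.49 and 2.64 in control hepatocytes, had 2.94 ± 0.28 (adjusted p = 4.01e-05) in hepatocytes, and the difference of effects was 0.04 ± 0.36 (adjusted p = 0.987).

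**Figure D5:**
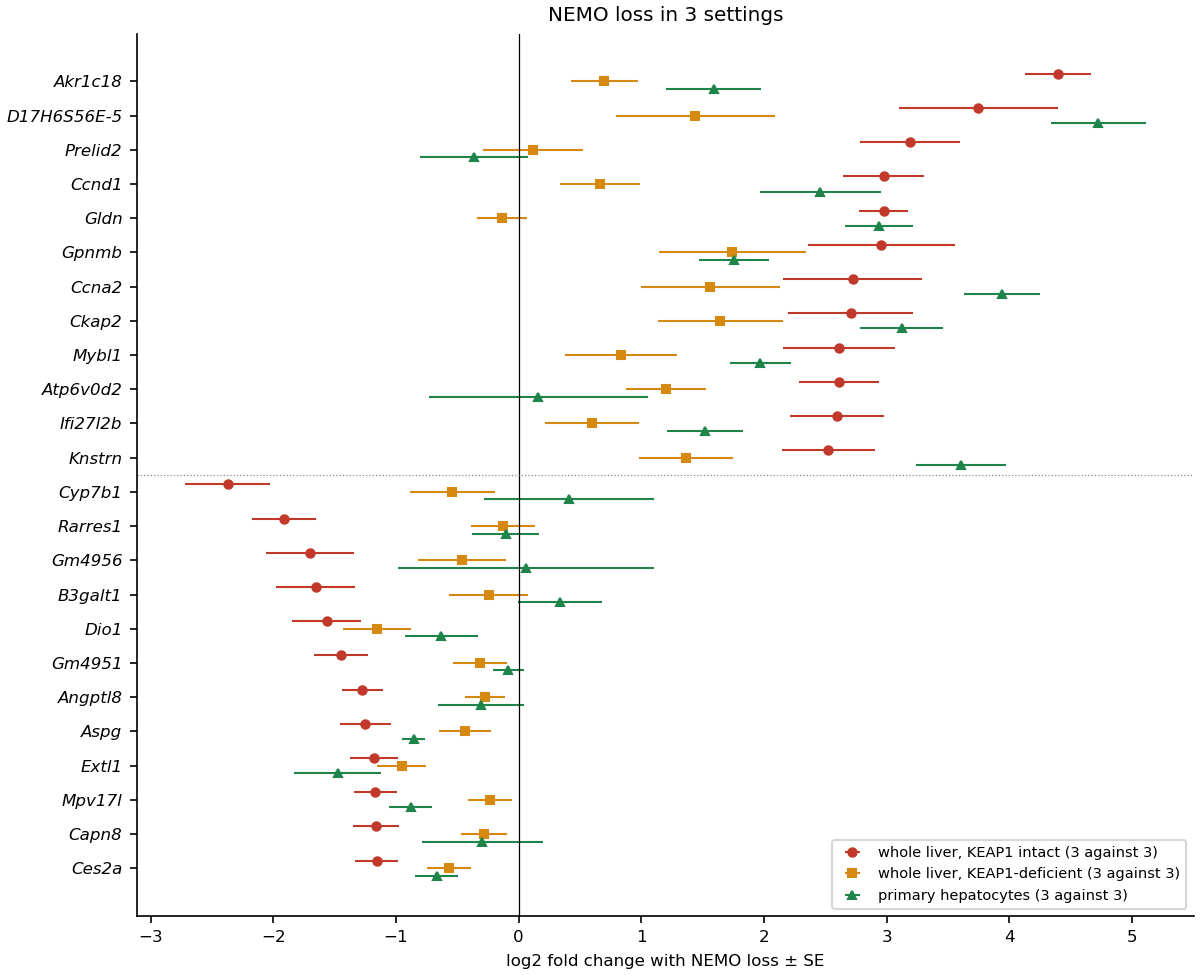
Log2 fold change with NEMO loss (horizontal axis, bars are standard errors, 3 against 3 arrays each) of the 24 genes with the largest rises and falls in whole liver, in KEAP1-intact liver, KEAP1-deficient liver and cultured hepatocytes. Gldn is at 2.98 in KEAP1-intact liver and at -0.14 in KEAP1-deficient liver, and Prelid2 is at 3.19 in liver and at -0.37 in hepatocytes.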

How the data were processed

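RNA of whole livers and cultured hepatocytes was hybridised to 24 Affymetrix mouse arrays, of which the 6 livers of the NEMO knockout and control groups are compared here. The authors deposited log2 values for 35556 probe sets, made by robust multi-array averaging (RMA), per the submitters' processing notes; scanner files, scan dates and batches were not used here. The array medians were 4.03 to 4.23, no columns were duplicates, and 0 value columns lacked a sample. The number of arrays limits the precision. Of the probe sets 21218 had 1 gene symbol, 1881 several and 12457 none listed in the platform annotation. Probe sets with 1 symbol were used, and where 1386 genes had several, the one with the highest mean, which gave 18820 genes.

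Differences were fitted with limma 3.58.1 in R 4.3.3 (lmFit, eBayes with an intensity trend) on the 12 liver arrays, without a replicate term, and adjusted by the Benjamini-Hochberg method over all genes. The 4 liver groups share 1 estimate of the spread. Where control 3 was left out, the fit had 11 arrays. Same-numbered knockout and control arrays had correlations of 0.00534, 0.189 and 0.171 between their deviations from the group means. Differently numbered ones had -0.237 to 0.128. The labels do not say whether the numbers pair the livers, and so few arrays cannot decide it. Hepatocytes were fitted on their own 12 arrays, and liver against hepatocytes on all 24. The fit was tested on simulated data.

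The genes named include the 12 largest rises and 12 largest falls that were called with and without control 3 and whose groups do not overlap. They also include the 8 largest in each direction called without it and not with it. From each list of genes up to 4 members called with all arrays were taken, by adjusted p. Places left of the 4 were filled with members called without control 3, by the size of the difference. The label and tissue checks were named as well. Other members of a list that are named were chosen for their known role or after their values were seen. The gene lists, and the comparison itself, were chosen with earlier results of these data known. Promoter windows are from RefSeq, GRCm38.p6.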

Additional observations from a re-analysis of the deposited data

Results flagged for a closer look

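The effect of NEMO loss differed between KEAP1-intact and KEAP1-deficient liver in 2 genes by limma's interaction term with all 12 liver arrays, Akr1c18 at 3.70 and Gldn at 3.11 (log2, intact minus deficient). In both genes controls 1 to 3 lay close together.

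With control 3 and double knockout 3 left out, further named genes passed in that term with a larger effect in KEAP1-intact liver. Among regulators of growth, death and stress these were Ccnd1 at 2.98, Cdkn1a at 1.55, Eda2r at 1.73, Nfe2l2 at 1.08, Robo1 at 1.82 and the spindle gene Knstrn at 1.87. Among genes of lipid handling and mitochondria they were Prelid2 at 3.41, Acot2 at 2.20, Cd36 at 1.83, Pdk4 at 1.55 and Npc1 at 0.76. Among genes of matrix, stellate cells, antigen presentation and the cytoskeleton they were Col1a1 at 1.99, Cygb at 1.86, Cd74 at 2.06, Anxa5 at 1.41, S100a11 at 2.43 and Tuba8 at 1.67, and Ifi27l2b stood at 2.66. The term was below 0 for genes that were lower with NEMO loss, namely Hamp2 at -2.17, B3galt1 at -1.91, Angptl8 at -1.15, Mpv17l at -1.08 and the P450 gene Cyp2u1 at -1.04. Both arrays left out were doubted from values of these data, and the cause of the differences was not tested.

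The effect differed between whole liver and hepatocytes (liver minus hepatocytes, limma) for Prelid2 at 3.55, Akr1c18 at 2.81 and Plvap at -1.74, and of these Prelid2 alone was also called without the 4 arrays in doubt.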

How the results depend on the processing

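Of 251 genes called between NEMO knockout and control liver, counts within 1.5 times were found with median centring (312), quantile normalization (222), a minimum mean log2 level of 4 (343), the mean of a gene's probe sets (256) and no intensity trend (217). Only 26 were called with the 2 groups fitted alone, and 1010 with array weights. Leaving out control 3 and double knockout 3 gave 2265, and leaving out control 3 with the 2 groups alone 1547. With 1 array left out the count ran from 23 (without NEMO knockout 3) to 1409 (without control 3), with 28 without control 1, 43 without control 2, 116 without NEMO knockout 1 and 140 without NEMO knockout 2. Without control 3 and 1 more array, an alternative chosen after seeing the data, it ran from 294 (without control 1) to 1235 (without NEMO knockout 2), against 1409. With the number as a replicate block 837 were called (14 matrix and 7 antigen presentation genes among them), and 428 with the 2 groups alone. Whether the numbers pair the livers is not known. In KEAP1-deficient liver 0 genes were called, 10 without both doubted arrays and 0 to 2 with 1 array left out. For the interaction these counts were 2 and 65, and 1 with the minimum level. Between liver and hepatocytes 13 were called (3 higher, 10 lower), 45 without both doubted liver arrays (21 higher, 24 lower) and 12 without all 4 doubted arrays (10 higher, 2 lower), so that the split turned round. The change of Gpx2 was -1.07 with all arrays and 1.21 without control 3, without both doubted arrays and without control 3 in the 2 groups alone, with a range of -2.22 to 1.21 over single arrays left out. That of Nqo1 was -0.63 with all arrays and 0.75 without control 3 or without both doubted arrays, with a range of -1.48 to 0.75. Over 151 named genes 128 kept direction and call under median centring and 145 under quantile normalization, and none reversed under either. The cause of these dependences was not tested. With 3 arrays a group, small differences in dim genes are below what these arrays resolve.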

Other observations

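Liver zonation genes were mostly without a call. Of 16 pericentral hepatocyte genes 2 rose with all arrays, the secreted factor gene Lect2 at 9.99, 9.76 and 10.13 in NEMO knockouts 1 to 3, against 9.08, 9.29 and 9.43 in controls 1 to 3 (0.70 ± 0.14, adjusted p = 0.0329, and 0.78 ± 0.15 without control 3, adjusted p = 0.0094) and the vitamin C synthesis gene Gulo at 11.22, 11.18 and 11.16 in the NEMO knockouts, against 10.80, 10.70 and 10.51 in the controls (0.52 ± 0.10, adjusted p = 0.0369, and 0.43 ± 0.10 without control 3, adjusted p = 0.029), and in both every NEMO knockout was above every control. The transcription factor gene Tbx3 fell without control 3 (-1.19 ± 0.28, adjusted p = 0.0244, and -0.92 ± 0.29 with control 3, adjusted p = 0.127), while the glutamine synthetase gene Glul had -0.27 ± 0.20 (adjusted p = 0.498, and -0.42 ± 0.20 without control 3, adjusted p = 0.239) with all arrays. Of 13 periportal genes 0 were called with or without control 3 (3 and 2 at an unadjusted p under 0.05). The urea cycle and amino acid list had 1 of 25 genes lower with all arrays, Aspg, and without control 3 also the glycine decarboxylase gene Gldc (-0.74 ± 0.20, adjusted p = 0.0436, and -0.78 ± 0.18 with control 3, adjusted p = 0.051).

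Other lists held single calls. Of 9 genes of the thyroid hormone axis Dio1 fell, and Thrsp fell too without control 3. Of 18 genes of the growth hormone and IGF axis the cytokine receptor gene Lifr fell without control 3 (-0.89 ± 0.13, adjusted p = 0.00275, and -0.46 ± 0.27 with control 3, adjusted p = 0.392), and of 15 clock genes the repressor gene Nfil3 (-1.09 ± 0.26, adjusted p = 0.0255, and -0.95 ± 0.24 with control 3, adjusted p = 0.0695). In metallothionein and iron handling Hmox1, which opens the heme ring, rose without control 3 (1.03 ± 0.26, adjusted p = 0.0311, and 0.64 ± 0.32 with control 3, adjusted p = 0.32) and Hamp2 fell. Of 21 genes of the unfolded protein and integrated stress response Atf3 rose without control 3, at 6.59, 6.27 and 7.15 in the NEMO knockouts, against 4.82, 4.45 and 6.24 in the controls (2.04 ± 0.29, adjusted p = 0.0027, and 1.50 ± 0.40 with control 3, adjusted p = 0.0851). Of 16 genes of gluconeogenesis and glycogen and 6 erythroid markers limma called 0 with or without control 3. With control 3 3 and 0 of them had an unadjusted p under 0.05, and without it 3 and 0.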
